A study of Papio hamadryas with 14 samples.

Results

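Adult baboon kidney was set against the earliest fetal kidney that was sampled. Messenger RNA of kidney was measured in the baboon Papio hamadryas, in 3 adults aged 6, 12 and 7 years (adult replicates 1 to 3, 1 array each) and in 2 fetuses at 60 days of gestation (60dG, 1 array each). These 5 arrays are all the adult and all the 60dG arrays of a series of 14. The other 9 arrays, 3 each at 90, 125 and 160 days of gestation (90dG, 125dG and 160dG), served to place each gene between the 2 ages. The labels give no treatment, genotype or sex. They call the fetal samples biological replicates and give each adult its own age. Total RNA was labelled as biotinylated cRNA and hybridised to human Affymetrix arrays, on which the signal of a probe set, a group of short probes for 1 transcript, is read as light intensity. A baboon transcript that differs from the human probes can give a lower signal, and probe-level values were not used here.

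The 3 adults were run on an array type other than that of the 11 fetal samples, and the 2 tables were made separately. Both hold the same 16186 probe sets. Age and array type therefore cannot be told apart in any adult value below, and no p-value is given across them. A gene was called higher or lower when the adult and 60dG arrays did not overlap and the means of log2(signal + 16) differed by at least 1, which is 2-fold on that scale. The added 16 damps the fold of dim genes. In whole tissue, fewer cells of a type and less RNA per cell cannot be told apart. Of 9580 named genes, 5340 had an average level above the median probe set (a signal of 188) and were kept, each through its brightest probe set. The other 4240 were too dim on average.

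A kidney filters blood in the glomerulus, and the tubule then takes back most of what was filtered. The proximal tubule recovers sodium, phosphate, sugars, amino acids and organic acids, and burns fatty acids to power that work. The loop of Henle, the distal tubule and the collecting duct set the salt and water content of urine. In the fetus, nephrons form from a pool of dividing progenitor cells around the branching ureteric bud, embedded in a loose stroma that secretes collagen. That pool is used up when the making of nephrons ends, before or around birth in primates.

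The arrays of each age were alike, and those of different ages were far apart. Over the kept genes, the median absolute log2 difference between 2 adult arrays was 0.237 to 0.257, and between the 60dG arrays 0.230. Between an adult and a 60dG array it was 0.564 to 0.681. Of the genes, 3.45% to 4.03% differed at least 2-fold between 2 adult arrays and 2.45% between the 60dG arrays, against 26.1% to 32.8% between an adult and a 60dG array. The median signal was 210 to 214 on adult arrays and 176 to 188 on 60dG arrays. The spike-in controls averaged 2565 to 2865 on adult arrays and 1651 to 1818 on 60dG arrays. The ratio of 3' to 5' signal of GAPDH, a sign of RNA quality, was 1.57 to 2.11 on adult arrays and 1.72 to 1.91 on 60dG arrays. The offset between the ages moved with brightness. With all probe sets parted by brightness into 4 equal bins, its median was 0.39 in the dimmest bin, 0.33 and 0.13 in the next 2 bins and -0.20 in the brightest.

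Parts of 2 samples did not look like kidney alone. Adult replicate 3 was high in genes of skeletal muscle. MYL1, a myosin light chain of fast muscle, gave 185, 171 and 8655 in adults 1 to 3, and CKM, the muscle creatine kinase, gave 21.5, 35.2 and 2348. The 10 muscle genes listed summed to 18764 on that array, against 1120 on the lowest adult array and 469 to 630 on the 60dG arrays. In all, 17 genes stood at least 4-fold above both other adults there, against 3 on replicate 1 and 1 on replicate 2. Among the 15 largest of the 17 only CCN1, an immediate early gene, is not known mainly for striated muscle. Of the genes raised there, MB (myoglobin), ENO3 (muscle enolase) and TTN (titin) were called higher in adults. MB gave 298, 384 and 1083 in adult and 136 and 177 in 60dG kidneys, and TTN 451, 375 and 2701 in adult and 47.4 and 114 in 60dG kidneys. Without that array MB kept its call, at 1.05, and ENO3 and TTN dropped below the filter.

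The array 60dG replicate 2 was high in genes of the adrenal cortex. CYP17A1, which makes androgens and cortisol precursors, gave 220 to 248 in adults, 8.7 on 60dG replicate 1 and 4960.3 on 60dG replicate 2. STAR, which brings cholesterol into mitochondria for steroid synthesis, gave 1096 on 60dG replicate 2 and 5.8 on 60dG replicate 1. The 9 adrenal genes on the arrays summed to 981 to 1017 in adults, 383 on 60dG replicate 1 and 7982 on 60dG replicate 2. The last value was the highest of all 11 fetal arrays. The 60dG arrays also differed in sex-linked genes. XIST, the RNA that coats the inactive X chromosome, gave 197 to 215 in adults, 4589 on 60dG replicate 1 and 139 on 60dG replicate 2. The Y-linked RPS4Y1 gave 3417 to 5359 in adults, 90.2 on 60dG replicate 1 and 5138 on 60dG replicate 2. Among the 3 sex-linked genes kept, none was called. Counts are therefore also given without adult replicate 3 and 60dG replicate 2, an alternative chosen after seeing the data.

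Of the 5340 genes, 718 (13.4%) were higher and 705 (13.2%) lower in adult than in 60dG kidney, 26.6% in all. At least 4-fold, 146 were higher (2.73%) and 139 lower (2.6%). With no size asked, 34.1% were higher without overlap and 33% lower, 67.1% in all. The median difference over all kept genes was 0.03. Without adult replicate 3 and 60dG replicate 2, 765 genes were higher and 789 lower, and of the main calls 597 of 718 and 636 of 705 remained. The balance rests on how the 2 tables are scaled. With every array set to 1 median signal, the median difference moved to -0.19, and 523 genes were higher and 978 lower. With quantile normalization it was 0.07, with 728 higher and 611 lower. Of the main calls, 523 of 718 higher and all 705 lower remained at equal median signal, and 636 of 718 and 579 of 705 with quantile normalization. List medians below are to be read beside 0.03.

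**Figure D1:**
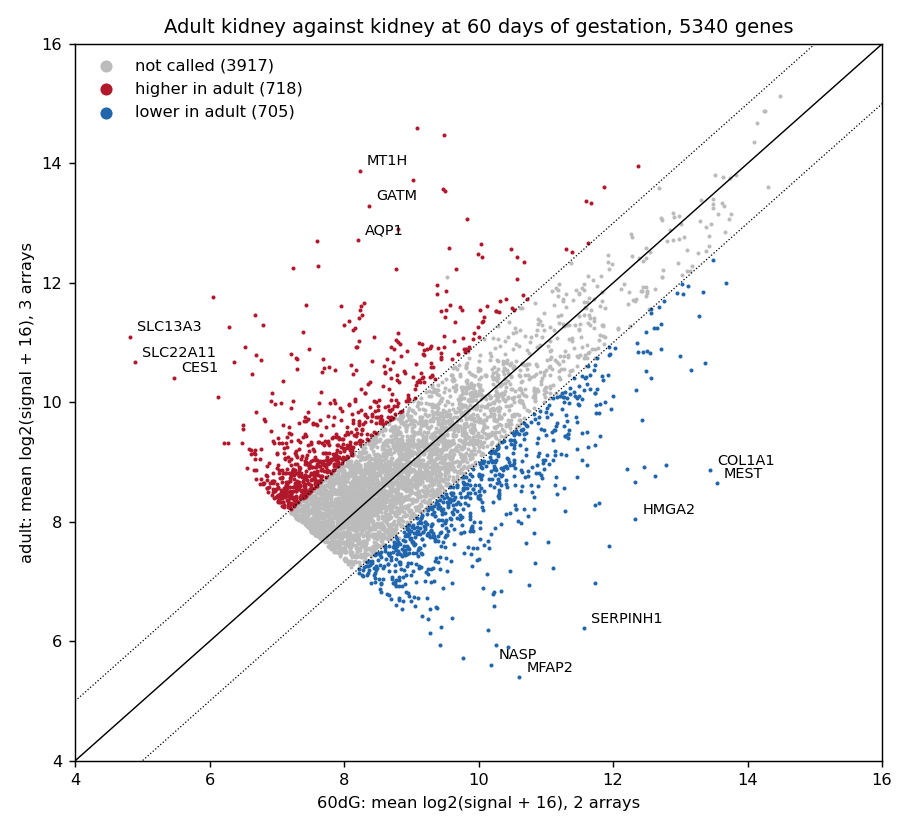
Mean log2(signal + 16) of each kept gene in adult kidney (3 arrays, vertical axis) against 60dG kidney (2 arrays, horizontal axis). The solid line marks equal levels and the dotted lines a 2-fold difference; 718 genes were higher (red) and 705 lower (blue) in adult kidney without overlap of arrays, and the empty corner holds genes below the average level of the filter.

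Transporters of the proximal tubule were higher in adult kidney. Of the 18 kept members of that list, 15 were higher in adult kidney and 0 lower, with a median of 2.55, against 13.4% of all kept genes and their median of 0.03. The difference was largest for SLC13A3, a sodium-coupled carrier of dicarboxylates such as succinate. It gave 2252, 2198 and 2081 in adult kidneys, against 7.7 and 17.4 in 60dG kidneys, a difference of 6.28 ± 0.25 (SE). The adult arrays lay close together, and the 60dG arrays were near the floor of the scale. Its second probe set differed by 3.93. Without 60dG replicate 1 that second probe set is the brighter one, and the difference is 3.52.

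SLC22A11, a carrier of organic anions and urate, gave 1509, 1931 and 1434 in adult and 5.7 and 24.2 in 60dG kidneys. SLC17A3, a urate carrier, gave 2336, 2786 and 2392 in adult and 84 and 108 in 60dG kidneys. Both were bright on every adult array and dim on every 60dG array. AQP1, the water channel of the proximal tubule and thin limb, gave 7001, 7552 and 5679 in adult and 259 and 299.6 in 60dG kidneys, a difference of 4.51 and 1.49 by its second probe set. PDZK1IP1, a small membrane protein of the proximal tubule, gave 7411, 3491 and 4383 in adult and 103 and 174 in 60dG kidneys.

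LRP2, or megalin, the receptor that retrieves filtered proteins, gave 4849, 4324 and 5289 in adult and 684 and 921 in 60dG kidneys, a difference of 2.57. SLC34A1, the main phosphate carrier, gave 1594, 1692 and 1419 in adult and 237 and 285 in 60dG kidneys. Both were higher on all 3 adult arrays. CUBN, or cubilin, megalin's partner, was not called: it gave 418, 119.9 and 475 in adult and 116 and 264 in 60dG kidneys, so that adult replicate 2 fell within the 60dG range. DPP4 and SLC7A7 were not called either, with differences of 0.08 and 0.94. Below the filter, SLC22A6, the organic anion carrier OAT1, gave 1487, 929.6 and 764 in adult and 4.1 and 19 in 60dG kidneys, so the filter leaves out some genes that were nearly silent at 60dG. Without the filter, 18 of 22 members were higher, where 1783 of all 9580 genes were higher and 1148 lower. Other counts without the filter are to be read beside these.

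In the loop of Henle, 3 of 5 kept members were higher and 0 lower (median 1.68), and below the filter the calcium-sensing receptor CASR was lower (-1.24). KCNJ1, the potassium channel ROMK that recycles potassium into the loop, gave 626, 735 and 628 in adult and 101 and 127 in 60dG kidneys. CLDN10, a claudin of the tight junction, gave 3011, 2842 and 3406 in adult and 744 and 919 in 60dG kidneys. SLC12A1, the sodium-potassium-chloride carrier NKCC2 that works beside KCNJ1, was not called. It gave 707, 474 and 479.8 in adult and 553 and 578 in 60dG kidneys, and the groups overlapped.

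Of 9 kept genes of the distal tubule and collecting duct, 6 were higher and 1 lower (median 1.36). Without the filter 11 of 18 were higher and 1 lower. SLC12A3, the thiazide-sensitive carrier NCC, gave 665, 465 and 526 in adult and 91 and 136 in 60dG kidneys. CALB1, the calcium-binding calbindin of the distal tubule, gave 3095, 3417 and 2497 in adult and 843 and 849 in 60dG kidneys, and its second probe set differed by 1.99. SCNN1A, which forms part of the epithelial sodium channel, and KL, the FGF23 co-receptor klotho, differed by 1.79 and 1.46. The exception was GATA3, a transcription factor of the ureteric bud that the collecting duct keeps. It gave 1056, 1231 and 633 in adult and 4301 and 3705 in 60dG kidneys, a difference of -2.07. AQP2, the vasopressin-regulated water channel, was not called, with 456, 374 and 289 in adult and 294 and 347 in 60dG kidneys. Below the filter, EGF gave 398, 376 and 275 in adult and 10.5 and 41.6 in 60dG kidneys, and PVALB, the parvalbumin of the early distal tubule, 644, 729 and 935 in adult and 15.9 and 74.2 in 60dG kidneys; both were higher on every adult array.

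The ion pumps that drive these carriers followed in part. Of 12 kept genes for the sodium-potassium ATPase, the proton pump and carbonic anhydrases, 6 were higher and 0 lower (median 1.18). SLC4A4, the bicarbonate exit carrier of the proximal tubule, gave 6793, 6960.5 and 4814 in adult and 657 and 836 in 60dG kidneys. CA2, the cytosolic carbonic anhydrase, gave 3679, 4637 and 3656 in adult and 561 and 758 in 60dG kidneys. ATP1B1, the beta subunit of the sodium pump, differed by 1.67, with 1.63 by its second probe set. ATP6V1B2, a subunit of the V-type proton pump, was also higher, with 1395, 996 and 1200 in adult and 328 and 257 in 60dG kidneys. The 6 kept genes without a call, all V-type proton pump subunits, lay between -0.52 and 0.99. Below the filter, the subunit ATP6V1E1 gave 348, 435 and 391 in adult and 117 and 34 in 60dG kidneys. Without the filter 7 of 14 members were higher and 0 lower.

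**Figure D2:**
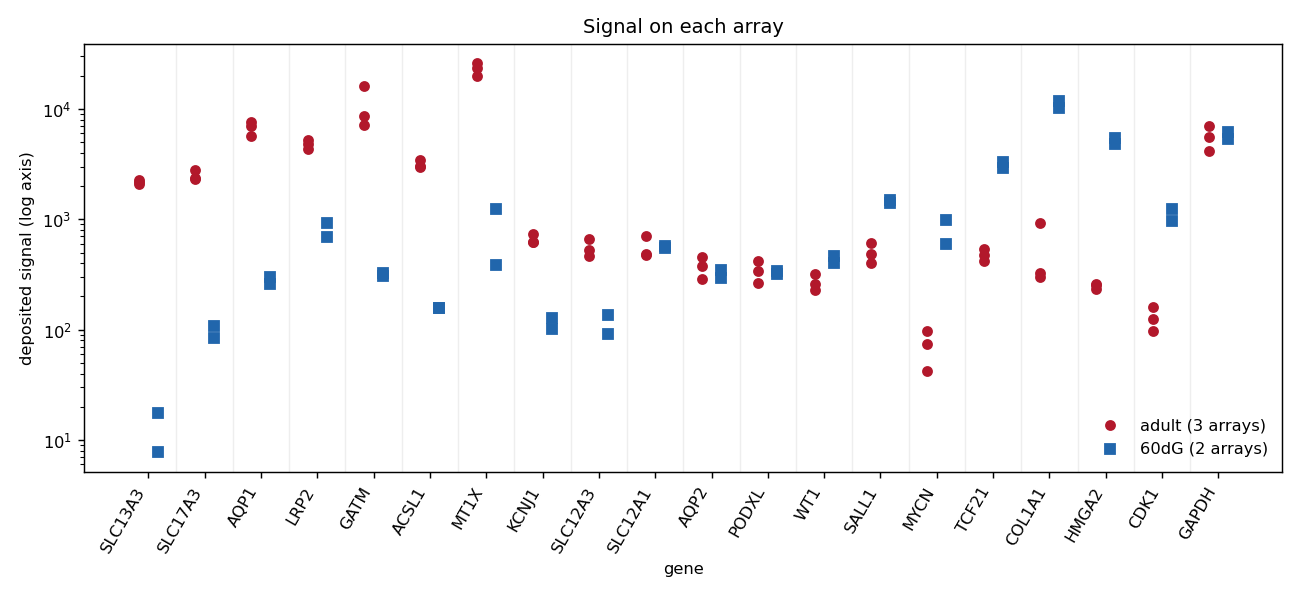
Deposited signal (log axis) of 20 genes on each of the 3 adult arrays (red circles) and the 2 60dG arrays (blue squares). Tubule carriers, GATM, ACSL1 and MT1X lie higher in adult kidney, MYCN, TCF21, COL1A1, HMGA2 and CDK1 lower, and SLC12A1, AQP2, PODXL and GAPDH overlap.

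Fuel and amino acid metabolism was higher too. Of 22 kept genes for fatty acid oxidation, 17 were higher and 0 lower (median 1.54), and the other 5 lay between 0.26 and 1.00. Without the filter 19 of 28 were higher and 2 lower. The 2 were CPT1A, the carnitine transferase that admits fatty acids to mitochondria, with 68.3, 139.5 and 56.4 in adult and 193 and 189 in 60dG kidneys, and PEX11A, a peroxisomal membrane protein, at -1.21. ACSL1, which activates long-chain fatty acids, gave 2976, 3467 and 3039.7 in adult and 157 and 158 in 60dG kidneys, a difference of 4.19 ± 0.07 (SE). ACAA2, a thiolase of mitochondrial beta oxidation, gave 4607, 5393 and 4511 in adult and 311 and 563 in 60dG kidneys. Neither overlapped. CAT, the peroxide-degrading catalase, differed by 2.27 and by 2.20 in its second probe set. PPARA, a transcription factor that controls this pathway, and its coactivator PPARGC1A differed by 1.11 and 1.04.

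Of 20 kept genes for gluconeogenesis and amino acid metabolism, 17 were higher and 0 lower (median 1.85). GATM, which makes the creatine precursor guanidinoacetate in the proximal tubule, gave 16024, 8720 and 7143 in adult and 304 and 326 in 60dG kidneys. PCK2 and PCK1, the mitochondrial and cytosolic PEP carboxykinases, differed by 3.80 and 2.93, and FBP1, the fructose bisphosphatase, by 3.18. All 3 are steps of glucose synthesis. PRODH2, which breaks down hydroxyproline, gave 2436, 3204 and 2006 in adult and 231 and 249 in 60dG kidneys, and HAO2, a peroxisomal oxidase of hydroxy acids, 2766, 2799.5 and 2898 in adult and 253 and 340 in 60dG kidneys.

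Of 34 kept genes for oxidative phosphorylation, 8 were higher and 0 lower (23.5%, median 0.44), although 32 lay above 0. The 8 included SDHA and SDHC of complex II and NDUFV1 of complex I, at 1.40, 1.29 and 1.37. ATP5F1B, the catalytic subunit of ATP synthase, differed by 0.17 and was not called. The median was 0.22 with equal median signal, and 5 were higher without 60dG replicate 1. Below the filter, NDUFB3 of complex I was lower, at -2.17.

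Of 18 kept enzymes that handle drugs and steroids, 13 were higher and 1 lower (median 2.01). Without the filter 17 of 26 were higher and 1 lower (median 1.48). CES1, a carboxylesterase, gave 1735, 1224 and 1146 in adult and 51.8 and 13.1 in 60dG kidneys. AOC1, the diamine oxidase that degrades histamine, gave 2554, 2003 and 1392 in adult and 75.6 and 76.9 in 60dG kidneys. CYP4A11, an omega-hydroxylase of fatty acids and arachidonate, gave 1956, 1760 and 1344 in adult and 93.8 and 92.5 in 60dG kidneys. UGT2B28, a glucuronosyltransferase, gave 2404, 4018 and 4256 in adult and 10.6 and 149.8 in 60dG kidneys, so its 60dG arrays differed widely from each other. The lower one was ALDH1A1, a retinaldehyde dehydrogenase, at -1.35.

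Outside the lists, the 12 largest gains included DCXR, a dicarbonyl and xylulose reductase, at 5.10. They also included DIO1, the deiodinase that activates thyroid hormone, which gave 2786, 3069.8 and 2611 in adult and 61.4 and 120.2 in 60dG kidneys. CXCL14, a chemokine, gave 2128, 2294 and 2989 in adult and 46 and 82.4 in 60dG kidneys. Among genes whose second probe set agreed, GPX3, the plasma glutathione peroxidase that the kidney secretes, gave 15201, 13752 and 11924 in adult and 272 and 929 in 60dG kidneys. AKR1C1 and AKR1C2, hydroxysteroid dehydrogenases, differed by 3.37 and 4.68, and NQO1, a quinone reductase, by 3.45. The AKR1C and UGT2B genes are near copies of each other, and their probe sets carry names that mark possible cross-hybridisation, so the split between members is uncertain.

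Metallothioneins, small proteins that bind zinc, copper and cadmium, were among the brightest genes of adult kidney. Of 7 kept members, 6 were higher and 0 lower (median 4.04). MT1X gave 19806, 25884 and 23379 in adult and 389 and 1248 in 60dG kidneys, and MT1H 11626, 16934 and 17374 in adult and 72.8 and 1003 in 60dG kidneys. MT2A gave 11455, 12562 and 11836 in adult and 459 and 1091 in 60dG kidneys. All adult arrays lay above both 60dG arrays, but 60dG replicate 2, the array high in adrenal genes, was above 60dG replicate 1 each time and by most for MT1H. The part of those genes in that was not tested. Leaving out 60dG replicate 1 gave a list median of 3.43, and leaving out replicate 2 gave 4.57. MT1HL1, at 5.51, and the MT1 genes are near copies, so signal may be shared between them. MT3, the brain form, was not called (0.57).

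Genes of antigen presentation were higher, and so was the summed signal of leukocyte genes. Of 11 kept genes of the major histocompatibility complex (MHC) and its partners, 10 were higher and 0 lower (median 1.56). B2M, the light chain of class I molecules, gave 15448, 12466 and 10110.1 in adult and 3994 and 3428 in 60dG kidneys; its dimmer second probe set differed by only 0.35. HLA-B gave 7158, 5143 and 3768 in adult and 1394 and 1886 in 60dG kidneys, and the class II chain HLA-DPB1 622, 580.4 and 674 in adult and 97.6 and 136 in 60dG kidneys. MHC genes resemble each other, so each human probe set may read several baboon genes. Of 18 macrophage and leukocyte genes on the arrays, 4 were kept and 1 was higher, MS4A1 of B cells (1.40). Without the filter 9 of the 18 were higher and 0 lower, against 1783 and 1148 of all 9580 genes. Dim probe sets tended to lie higher on adult arrays, by a median of 0.39 in the dimmest bin. The summed signal of the 18 was 4238 to 4879 in adults and 1763 to 2206 at 60dG. Of that, IGKC, an immunoglobulin light chain, gave 1281, 504 and 564 in adults and 27.3 and 41.3 at 60dG. The part of macrophages and leukocytes in the MHC result was not tested.

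Of 11 kept complement and clotting genes, 6 were higher and 1 lower (median 1.16). Without the filter 8 of 16 were higher and 1 lower (median 0.96). CD59, which protects cells from the membrane attack complex, gave 2866, 2707 and 3308 in adult and 592 and 771 in 60dG kidneys, and its second probe set differed by 2.01. C7, C1S and C1R differed by 2.05, 2.00 and 1.84. SERPINA1, the trypsin inhibitor alpha-1 antitrypsin, was the lower one, at 232, 145 and 72.3 in adult and 477 and 638 in 60dG kidneys.

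On the losing side, collagen and its supporting proteins stood out. Of 16 kept genes for fibrillar matrix, 15 were lower and 0 higher in adult kidney (median -2.57), against 13.2% of all kept genes. COL1A1, a chain of type I collagen, gave 326, 924 and 298 in adult and 11921 and 10260.1 in 60dG kidneys, a difference of -4.57 ± 0.52 (SE). Its 2 further probe sets differed by -2.86 and -3.82. COL1A2, the partner chain, gave 1249, 2538 and 1631 in adult and 9234 and 7257 in 60dG kidneys, and -4.23 by its second probe set. All 5 probe sets of these 2 chains were lower on every adult array. COL3A1, type III collagen, gave 178, 1042 and 395 in adult and 6005 and 6584 in 60dG kidneys. In these brightest probe sets adult replicate 2 was the highest adult, but in the second probe set of COL1A2 the adults gave 151, 117 and 82.1.

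SERPINH1, the chaperone that folds collagen in the endoplasmic reticulum, showed the largest loss of all kept genes. It gave 43.3, 71.5 and 63.4 in adult and 3111 and 2927 in 60dG kidneys, a difference of -5.35 ± 0.17 (SE). MFAP2, a protein of elastic microfibrils, came next, with 26.6, 28.2 and 24.1 in adult and 1252 and 1888 in 60dG kidneys. VCAN, the proteoglycan versican, gave 485, 440.5 and 442 in adult and 5157 and 4268 in 60dG kidneys, and its 5 kept probe sets ranged from -4.77 to -3.00. COL2A1, the collagen of cartilage, gave 88.2, 87 and 112 in adult and 1169.7 and 1172 in 60dG kidneys.

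Genes of the renal stroma were lower as well, 6 of 10 with 0 higher (median -1.76). TCF21, a transcription factor of stroma and podocytes, gave 543, 477 and 423 in adult and 3321 and 2923 in 60dG kidneys. MEIS1 and MEIS2, homeodomain factors of the stroma, differed by -2.56 and -2.71, and DLK1, a non-canonical Notch ligand, by -2.21. DCN, the proteoglycan decorin, was not called (-0.18). FOXD1, which defines the early stroma, lay below the filter. It gave 16.8, 20.2 and 19.3 in adult and 873 and 825 in 60dG kidneys, and was named after its values were seen. CDH11, a cadherin of mesenchyme outside the list, gave 253, 367 and 295 in adult and 3440.2 and 3612 in 60dG kidneys, and -3.26 by its second probe set.

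Nephron progenitor genes split. Of 9 kept members 3 were lower and 0 higher (median -0.68), and 5 were lower without adult replicate 3 and 60dG replicate 2. Without the filter 6 of 15 were lower and 1 higher, DPF3, a chromatin factor (1.17). MYCN, a growth-promoting transcription factor of the cap mesenchyme, gave 73.7, 97.2 and 42.6 in adult and 979 and 594 in 60dG kidneys. SALL1, which keeps progenitors from differentiating, gave 608, 488 and 399.8 in adult and 1498 and 1420 in 60dG kidneys. ITGA8, the integrin subunit that draws in the ureteric bud, differed by -1.51. PAX2 and WT1, which adult collecting duct and podocytes also use, were not called. PAX2 gave 309, 371 and 316 in adult and 651 and 512 in 60dG kidneys, and WT1 317, 227 and 261 in adult and 467 and 405 in 60dG kidneys; the second probe set of WT1 differed by -2.98, far from the -0.68 of the first, and that of PAX2 by 0.12. Below the filter, EYA1 gave 112, 42 and 22.9 in adult and 468 and 490.1 in 60dG kidneys and CITED1 27.2, 25.1 and 17.2 in adult and 201 and 174 in 60dG kidneys. Both mark uncommitted progenitors. SIX2, their main regulator, gave 94.4, 167 and 206 in adult and 215 and 194 in 60dG kidneys, groups that overlapped.

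Among genes of early nephrons and the ureteric bud, 5 of 10 were lower and 0 higher (median -1.01). Without the filter 9 of 16 were lower and 1 higher, the ligand WNT7B (2.39). SOX4, a factor of nascent nephrons, gave 491, 523 and 392 in adult and 5869.9 and 5359 in 60dG kidneys, and -2.19 by its second probe set. JAG1, a Notch ligand, LGR5, a Wnt co-receptor, and CCND1, cyclin D1, differed by -1.86, -2.32 and -1.70. RET, the receptor of bud tips, and PAX8 were not called, at 0.14 and 0.70. FZD2, a Wnt receptor outside the list, was among the 12 largest losses, with 26.5, 186 and 9.1 in adult and 1598 and 1169.6 in 60dG kidneys; the adults differed widely from each other.

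Oncofetal and imprinted genes, growth regulators that are active before birth, had the lowest median of the lists with 5 or more kept genes (-2.69). Of 15 kept members 11 were lower and 1 higher. MEST, an imprinted hydrolase, gave 399, 451 and 319.5 in adult and 11862 and 11898 in 60dG kidneys, and PEG10, an imprinted gene derived from a retrotransposon, 182, 98.2 and 73.4 in adult and 3017 and 3808 in 60dG kidneys. HMGA2, an architectural chromatin protein of embryonic tissue, gave 252, 260.4 and 232 in adult and 5496 and 4816 in 60dG kidneys. IGF2BP3, a fetal RNA-binding protein, gave 24.5, 76.5 and 22.6 in adult and 902 and 816 in 60dG kidneys. None of these groups came near each other. CDKN1C, an imprinted brake on the cell cycle, differed by -2.51, -2.43, -0.75 and -3.04 in its 4 kept probe sets, and the one at -0.75 was not called. GRB10, an imprinted adaptor that damps insulin signalling, was the higher one, at 1.67. AFP, alpha-fetoprotein, gave 148, 209 and 74.3 in adult and 1542 and 3098 in 60dG kidneys. ALB, albumin, which the liver also makes, differed by 0.51 and was not called. The 13 liver genes on the arrays summed to 1687 to 2847 in adults and 940 to 1574 at 60dG.

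Cell cycle genes were lower in 16 of 26 kept cases and higher in 0 (median -1.25). CDK1, the mitotic kinase, gave 96.7, 159 and 124 in adult and 960.5 and 1252 in 60dG kidneys, and -4.60 by its second probe set. CDC20, which triggers anaphase, gave 37.3, 96.6 and 79.7 in adult and 615 and 569.9 in 60dG kidneys. CCNB2, cyclin B2, gave 241, 242 and 315 in adult and 1489 and 1218 in 60dG kidneys, a difference of -2.28. The helicase subunits MCM7, MCM2, MCM6 and MCM3 differed by -2.20, -2.07, -1.75 and -1.29. MKI67, the usual marker of dividing cells, was not called, with 306, 255 and 244 in adult and 249 and 303 in 60dG kidneys. It was 1 of 10 kept members without a call. CENPA, the histone of the centromere, KIF2C, a mitotic kinesin, and TYMS, thymidylate synthase, differed by -0.00, -0.19 and -0.20, and CDKN3, a phosphatase of CDKs, BIRC5, or survivin, and ZWINT, a kinetochore protein, by 0.11, 0.25 and 0.33. Another 16 members lay below the filter, among them TOP2A, a topoisomerase of dividing cells, with 34.8, 11 and 33.4 in adult and 620.3 and 449 in 60dG kidneys. Without the filter, 29 of 42 were lower and 0 higher.

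Of 20 kept chromatin and splicing genes 13 were lower and 0 higher (median -1.23), but only 8 were lower after quantile normalization. HNRNPA3 and HNRNPM, packaging proteins of nascent RNA, differed by -3.37 and -2.17. HDAC2, a histone deacetylase, gave 667, 468 and 369 in adult and 2146 and 2074 in 60dG kidneys. NASP, a histone H1 chaperone outside the list, was among the 12 largest losses, with 60.6, 29.1 and 17.4 in adult and 1325 and 999 in 60dG kidneys. Others of those 12 were BASP1, a membrane and nuclear signalling protein (-4.35), HMGA1 (-4.33) and MDK, the growth factor midkine (-3.95). TUBB3, a tubulin listed as neural, differed by -2.39, while the other 3 kept neural genes ran from -0.15 to 1.29. The 9 neural genes on the arrays summed to 1978 to 2437 in adults and 3405 to 3650 at 60dG, but without TUBB3 the other 8 summed to 1522 to 2036 in adults and 1078 to 1440.1 at 60dG.

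Genes often used as references were not all level. Of 13, 1 was higher and 3 lower (median -0.41). GAPDH gave 6944, 4162 and 5618 in adult and 6183 and 5322 in 60dG kidneys and overlapped, while ACTB gave 12034, 11207 and 14534 in adult and 20471 and 19930.5 in 60dG kidneys and did not, at -0.69. PPIB differed by -1.81, and by -0.68 in its second probe set. The 4 kept probe sets of YWHAZ differed by -1.39, -0.07, -1.63 and -0.80, of which those at -1.39 and -1.63 were called lower. Of 39 cytosolic ribosomal proteins 2 were lower (4 without 60dG replicate 2) and 0 higher, with a median of -0.51 that moved to -0.11 with quantile normalization and to -0.73, with 10 lower, at equal median signal.

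Few genes of the glomerulus and the vessels were called, and no common direction is read from them. Of 7 kept genes of podocytes and the glomerular basement membrane, 1 was higher and 2 lower. These are 14.3% and 28.6%, beside 13.4% and 13.2% of all kept genes. Their median, 0.02, was -0.19 at equal median signal. The called genes were PTPRO, whose 2 probe sets were called in opposite directions, and 2 collagen chains of the basement membrane, also opposed. COL4A3, a chain of the mature membrane, gave 734, 868 and 782 in adult and 330.3 and 239 in 60dG kidneys, with 0.88 and no call by its second probe set, while COL4A5 gave 668, 551 and 652 in adult and 1799 and 1925 in 60dG kidneys. PODXL, the podocyte surface sialomucin, was not called, with 338, 264 and 419 in adult and 318 and 341 in 60dG kidneys. Below the filter NPHS1, nephrin of the slit diaphragm, gave 33.7, 27.2 and 27.9 in adult and 188 and 194 in 60dG kidneys, whereas SYNPO, the actin-binding synaptopodin, gave 192, 278.5 and 215 in adult and 116 and 59.2 in 60dG kidneys. Without the filter 2 of 14 members were higher and 4 lower, and with only plainly named probe sets 2 of 5 were higher and 0 lower. The summed signal of the 14 was lower in adults, at 3848 to 3978, against 5215 to 7063 at 60dG and 5215 to 8802 over all fetal arrays. Much of that gap came from COL4A5, given above, and from PTPRO. The brightest probe set of PTPRO gave 242, 288 and 181 in adult and 2428 and 671 in 60dG kidneys. COL4A3 and SYNPO ran the other way. The sum without PTPRO and COL4A5 was not computed, and no direction is read from it.

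Of 8 endothelial genes 1 was higher and 1 lower (median 0.56), and without the filter 1 and 3 of 15. The kept counts are 12.5% each way, near the 13.4% and 13.2% of all kept genes, and nothing is read from them. CDH5, VE-cadherin, gave 112, 245 and 187 in adult and 518 and 566 in 60dG kidneys, whereas PECAM1 differed by 0.67 and was not called. The higher one, TEK, the angiopoietin receptor, at 1.05, lost its call without adult replicate 3 and stood at -0.12, through its other probe set, without 60dG replicate 1. Of 8 genes of smooth muscle and pericytes 2 were higher and 1 lower (median 0.42). RGS5, a pericyte marker, gave 664, 391 and 368 in adult and 93.3 and 167 in 60dG kidneys, and NOTCH3, a receptor of mural cells, 167, 167 and 187 in adult and 550.2 and 531 in 60dG kidneys. Globins differed by their developmental form. HBE1, the embryonic epsilon globin, gave 199.5, 256 and 331 in adult and 1127 and 2500.4 in 60dG kidneys, and HBB, the adult beta globin, 1403, 1716 and 1315 in adult and 315 and 238 in 60dG kidneys. Embryonic HBZ, below the filter, gave 9.7, 5.5 and 7.9 in adult and 299.7 and 420.5 in 60dG kidneys.

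Of 8 kept immediate early genes, which respond within minutes to stress and handling, 3 were higher and 0 lower (median 0.43), and without the filter 6 and 2 of 16. ZFP36, which destabilises inflammatory mRNAs, gave 1372, 1115 and 983 in adult and 154 and 222 in 60dG kidneys, and DUSP1, a MAP kinase phosphatase, 494, 574 and 909 in adult and 172 and 219.9 in 60dG kidneys. JUN and JUND were not called, at 0.30 and -0.02.

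**Figure D3:**
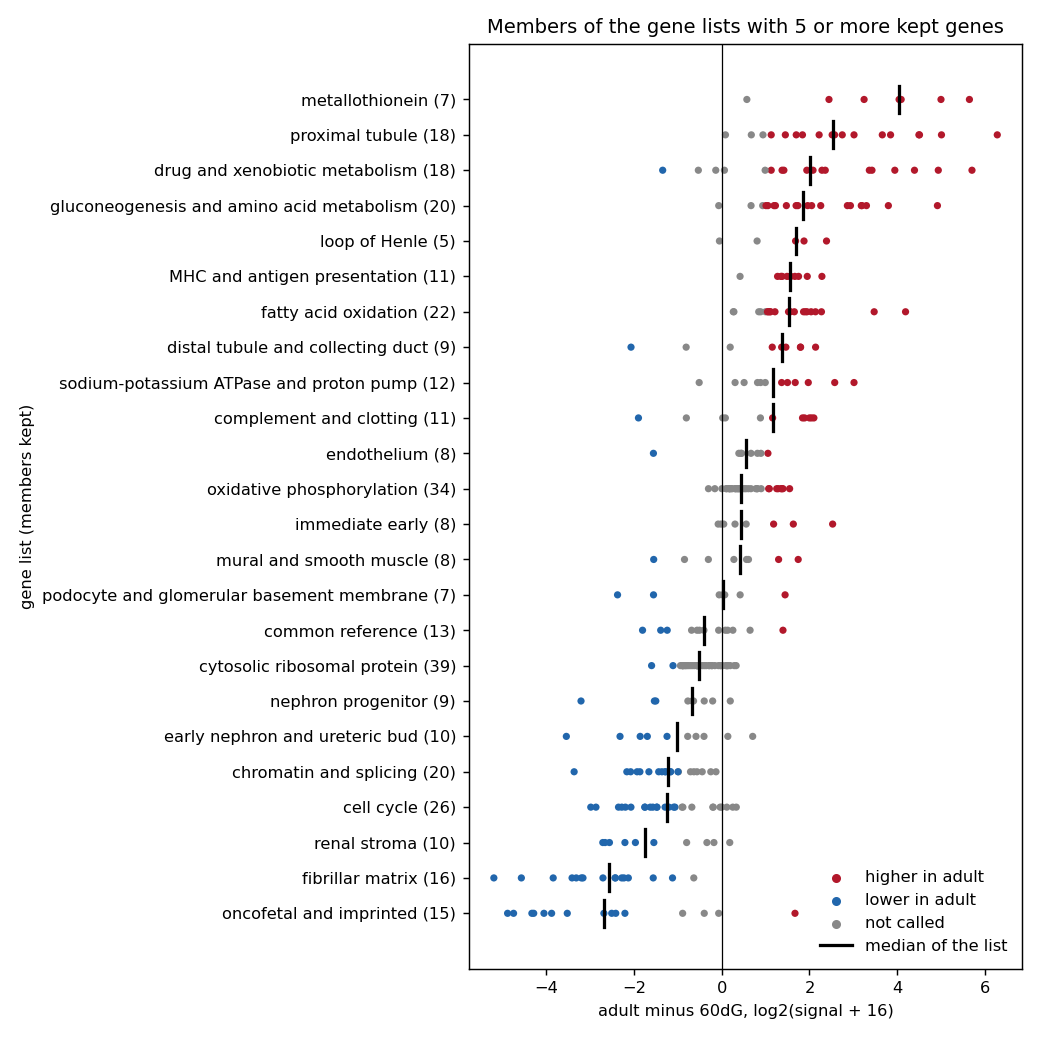
Difference between adult and 60dG kidney, in log2(signal + 16), of each kept member (points) of the gene lists with 5 or more kept genes, ordered by the list median (black bar). Metallothioneins (median 4.04) and proximal tubule genes (2.55) lie at the top, and fibrillar matrix (-2.57) and oncofetal and imprinted genes (-2.69) at the bottom.

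A second probe set on the same arrays is assigned to the same gene, which gives a partial check on single probe sets but not on the array types. Probe sequences were not used, so whether 2 probe sets share probes or read different transcripts was not examined. Of 1298 kept genes with 2 or more kept probe sets, the brightest and the second had the same sign in 932, or 71.8% (Wilson 95% interval 69.3% to 74.2%, which covers counting error only). The share moved with size. It was 60.6% of 579 genes that differed by under 0.5, 75.6% of 373 between 0.5 and 1, 85.1% of 281 between 1 and 2, and 92.3% of 65 at 2 or more. Across genes, which are not independent replicates and share 5 arrays, Pearson's r was 0.65 and Spearman's rho 0.58.

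Among the 120 genes called higher by the brightest probe set and read by a second, 71 were called higher by the second as well (59.2%), against 10.3% of all second probe sets. In 40 more the second had the same sign without a call, in 9 it had the other sign, and in 0 it was called lower. Among 225 called lower, 104 were called lower by the second (46.2%, against 19.1% of all second probe sets), 83 had the same sign without a call, 34 had the other sign and 4 were called higher. These 4 were EGFR, the receptor of epidermal growth factor, PTPRO, a tyrosine phosphatase of podocytes, IPO9, a nuclear import factor, and SLC35E1, a putative sugar carrier. EGFR differed by -1.06 and 1.47, PTPRO by -2.38 and 1.36, IPO9 by -1.48 and 1.11, and SLC35E1 by -1.11 and 1.12. The third probe set of EGFR stood at 0.60. No direction is drawn for these 4 genes.

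The largest differences read by 2 probe sets in 1 direction were those of SLC13A3, MT1X, GPX3, AKR1C2, GATM, MT1F, AKR1C1 and NQO1 on the higher side. On the lower side they were MARCKS, a substrate of protein kinase C (-3.66 and -3.47, and 0.081 and -1.75 in 2 dimmer probe sets), CDH11, VCAN, CDK1, COL3A1, COL1A1, DBN1, the actin-binding drebrin (-2.61 and -3.73), and CDKN1C.

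**Figure D4:**
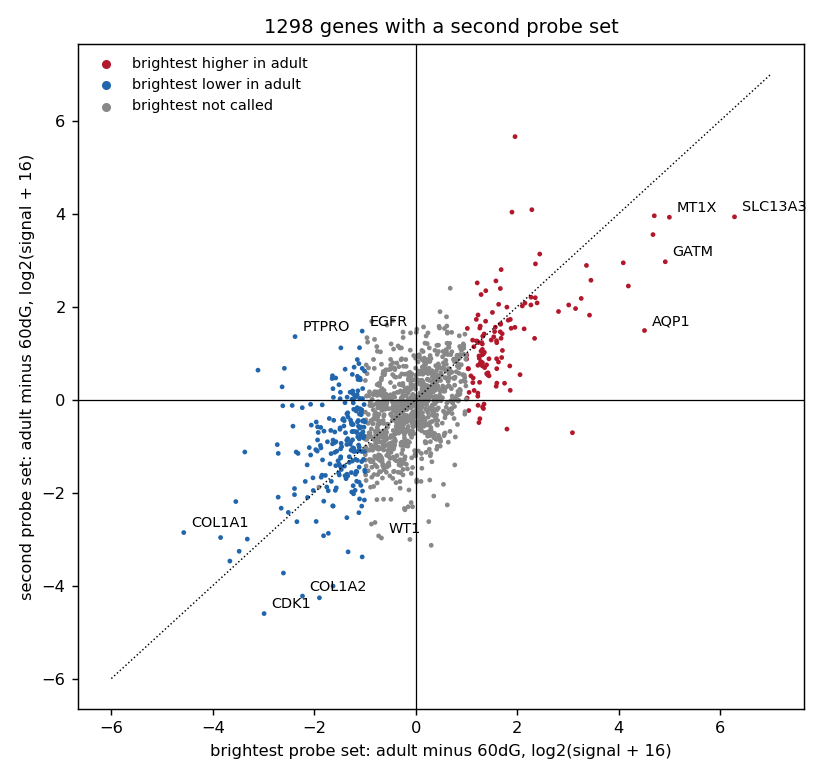
Difference between adult and 60dG kidney, in log2(signal + 16), by the second probe set (vertical axis) against the brightest (horizontal axis) of 1298 genes, with equality dotted. SLC13A3, MT1X, GATM, COL1A1 and CDK1 lie far out in both, and EGFR and PTPRO lie in the quadrant where the 2 probe sets oppose each other.

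The arrays at 90dG, 125dG and 160dG are independent of the 60dG and adult arrays and share 1 array type, so they show whether the same genes moved before birth where array type plays no part. Between 90dG and 160dG, limma called 347 of 5340 genes higher (6.5%) and 400 lower (7.49%) at 160dG, at an adjusted p under 0.05. Of the 718 genes higher in adult kidney, 76 rose (10.6%) and 11 fell (1.53%). Of the 705 lower in adult kidney, 29 rose (4.11%) and 166 fell (23.5%). At 4-fold or more, 22 of 146 higher genes rose and 1 fell, and 2 of 139 lower genes rose and 65 fell (46.8%). The counts rest on few arrays. Leaving out 90dG replicate 3 gave totals of 174 higher and 188 lower, and leaving out 90dG replicate 2 gave 244 and 247. For 160dG the totals were 200 and 263 with replicate 1 left out, 230 and 268 with replicate 2 left out, and 172 and 215 with replicate 3 left out. In these 5 fits, 5.71% to 9.19% of the higher genes rose, against 3.22% to 4.57% of all kept genes, and 13.8% to 18.6% of the lower genes fell, against 3.52% to 5.02% of all. The 90dG arrays had spike-in averages of 581 to 1350 and GAPDH 3' to 5' ratios up to 3.43, against at least 1724 and at most 1.99 at 125dG and 160dG; their part in these calls was not tested.

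By role, counts before birth are given for some of the lists, beside 6.5% of all kept genes that rose and 7.49% that fell. Between 90dG and 160dG, 14 of 26 cell cycle genes fell and 0 rose, as did 8 of 16 matrix genes and 7 of 15 oncofetal and imprinted genes. For early nephrons and the ureteric bud 3 of 10 fell and 0 rose, and for chromatin and splicing 5 of 20 fell and 2 rose. For the renal stroma 0 of 10 kept genes fell and 1 rose. For the loop of Henle 3 of 5 rose and 0 fell (median 1.53), and for smooth muscle and pericytes 3 of 8 rose and 0 fell. For the proximal tubule 2 of 18 rose and 0 fell, for fatty acid oxidation 3 of 22 rose, and for gluconeogenesis and amino acid metabolism 1 of 20. For metallothioneins 0 of 7 moved either way. In lists this small, counts of 0 to 2 are near the shares of all kept genes, and nothing is read from them. Of 39 ribosomal proteins 22 fell and 0 rose (median -0.52).

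Some of the adult losses were nearly complete by 160dG. HMGA2 averaged 5156 ± 481 at 60dG (SD, n = 2), 2230.2, 767 and 368 at 90dG, 125dG and 160dG (n = 3 each) and 248 in adults, and fell by 2.55 on the log2 scale between 90dG and 160dG (limma, adjusted p = 3.57e-06). AFP averaged 2320.2, 3541, 541 and 88 across the fetal stages and 144 in adults, whose arrays overlapped those at 160dG. COL2A1 likewise stood at 95.8 in adults and 97.9 at 160dG, and MYCN at 71.2 in adults and 128 at 160dG. The globin HBE1 fell by 3.56 on the log2 scale between 90dG and 160dG (limma, adjusted p = 1.15e-05).

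For other genes lower in adult kidney, no fall before birth passed the test. TCF21 averaged 3122, 4094, 4965 and 4696 across the fetal stages and 481 in adults. SOX4 stood at 469 in adults and 5433 at 160dG, DLK1 at 423 in adults and 2637 at 160dG, and CDH11 at 305 in adults and 3068 at 160dG. Between 90dG and 160dG these 4 did not differ past the threshold (limma, adjusted p of 0.383, 0.0845, 0.657 and 0.082). COL1A1 did fall, by 1.11 on the log2 scale (limma, adjusted p = 0.000503), but adults averaged 516, against 7936 at 160dG.

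Genes higher in adult kidney also varied in how far they had come by 160dG. AOC1 averaged 76.2, 250.2, 451 and 1137 across the fetal stages and 1983 in adults, rising by 2.06 between 90dG and 160dG (limma, adjusted p = 0.00195), and its adult and 160dG arrays overlapped. KCNJ1 overlapped likewise, at 663 in adults and 554 at 160dG, as did CXCL14, at 2470.3 in adults and 2315 at 160dG. ACSL1 rose by 1.36 (limma, adjusted p = 0.00369), and averaged 3161 in adults and 486 at 160dG. SLC17A3 stayed between 96 and 162 from 60dG to 160dG and stood at 2505 in adults, SLC13A3 between 12.6 and 78.5, with 2177 in adults. MT1X averaged 609 to 884 from 60dG to 160dG and 23023 in adults.

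SLC12A1, not called between adult and 60dG kidney, did move in between. It averaged 566, 599, 782 and 1800.0 across the fetal stages and 554 in adults, and rose by 1.53 ± 0.25 (SE) between 90dG and 160dG (limma, adjusted p = 0.00248). CALB1 averaged 846 at 60dG, 495 at 90dG, 1448 at 160dG and 3003 in adults, rising by 1.53 between 90dG and 160dG (limma, adjusted p = 0.00223). In 40 genes the 2 comparisons ran in opposite directions, 11 higher in adults but falling between 90dG and 160dG and 29 the reverse. The direction rests on the 90dG level, and from 60dG to 160dG some of these genes moved the other way. APOM, called as falling, averaged 436 at 60dG, 1306 at 90dG and 618 at 160dG. EIF3A, called as rising, averaged 1892, 794 and 1221 at these stages. The part of the 90dG arrays in this was not tested. PRDX6, a peroxiredoxin, averaged 1005 at 60dG, 1501 at 90dG, 855 at 160dG and 5706 in adults. YES1, a kinase of the Src family, averaged 1399 at 60dG, 601 at 90dG, 1349 at 160dG and 283 in adults. Both were named after their values were seen, as the extremes of that set.

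Of the 718 higher genes, 540 (75.2%) lay above all 11 fetal arrays on every adult array, as did 18.4% of all kept genes. Of the 705 lower genes, 520 (73.8%) lay below all 11, as did 15.8% of all kept genes. The higher and lower genes were chosen for no overlap with the earliest fetal arrays, which are among the 11. Their larger shares follow in part from that choice, and nothing is read from the contrast with all kept genes. All 11 fetal arrays are also of the other array type, whose part in these counts was not tested.

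**Figure D5:**
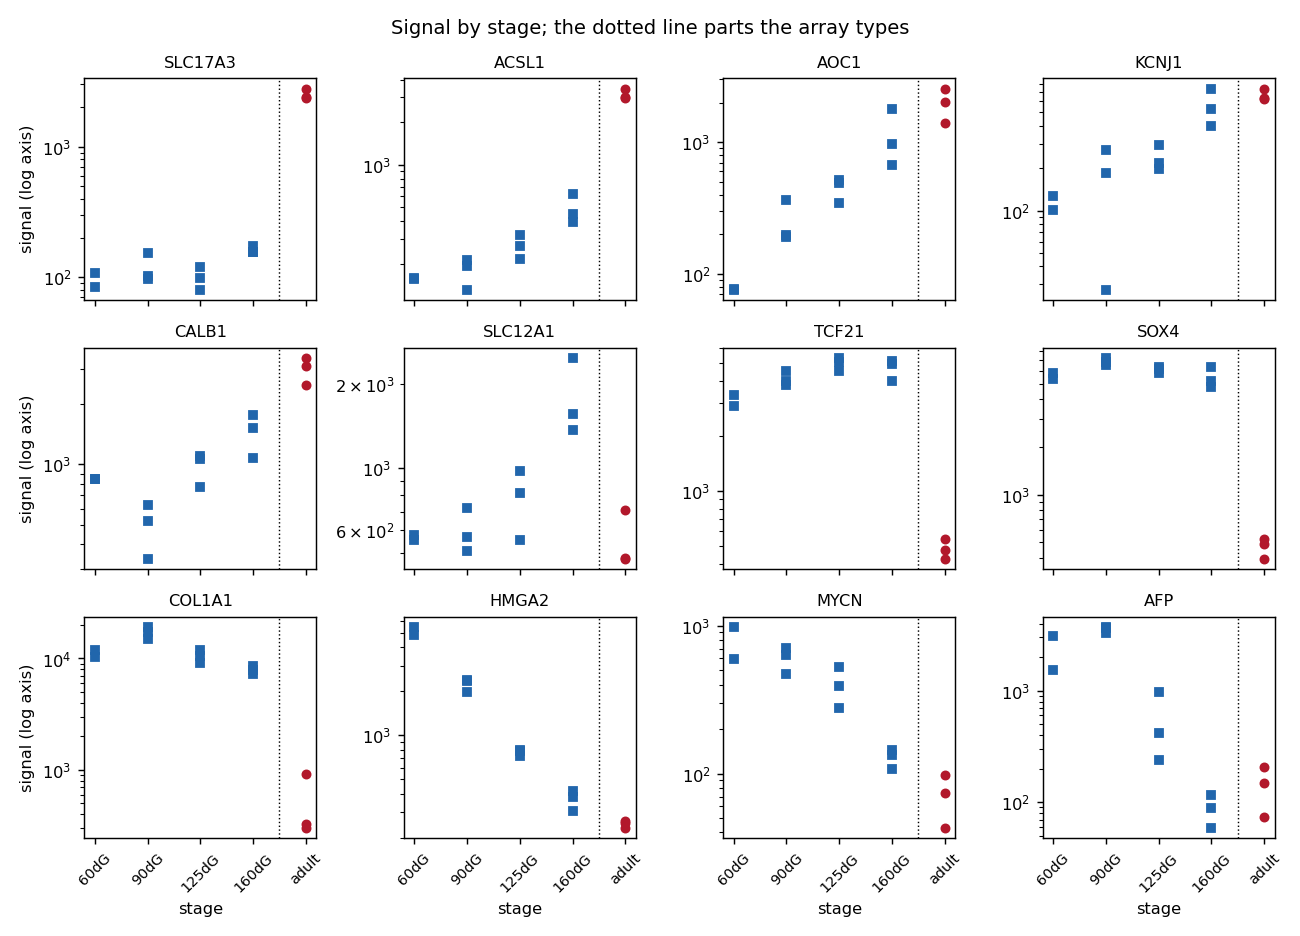
Signal (log axis) of 12 genes on every array from 60dG to 160dG (blue squares) and in adults (red circles, right of the dotted line, on another array type). HMGA2, MYCN and AFP fell between 90dG and 160dG, TCF21, SOX4 and COL1A1 were still high at 160dG, AOC1 and KCNJ1 overlapped the adult range at 160dG, and SLC12A1 was highest at 160dG.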

How the data were processed

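RNA was extracted with Trizol, labelled with biotin and hybridised to human Affymetrix arrays, per the labels. The authors deposited 1 linear signal intensity for each probe set, made with GCOS per the submitters' processing notes. Its version and settings are not given in the sources that were used. The adult table (3 arrays) and the fetal table (11 arrays) were deposited separately and were not rescaled. The small number of arrays limits the precision.

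Of 16186 probe sets, 43 are controls, 14068 have 1 gene symbol in the platform annotation, 735 several and 1340 none; only those with 1 symbol were named. Signals were taken as log2(signal + 16). Each of 9580 genes was represented by the probe set with the highest average of the 2 group means, and kept above the median over the non-control probe sets (7.67 on the log2 scale), which left 5340 genes and 7151 probe sets. Calls between adult and 60dG needed arrays without overlap and a log2 difference of at least 1. The errors given with differences are standard errors over 3 adult and 2 60dG arrays. For 160dG against 90dG, limma 3.58.1 in R 4.3.3 (lmFit, eBayes with an intensity trend, Benjamini-Hochberg over 5340 genes) was fitted to the 9 arrays of 90dG, 125dG and 160dG. Both calls were tested on simulated data with planted shifts and independent noise. The simulated arrays held no offset between array types, so they do not bear on that offset. The plots were made in matplotlib 3.10.9.

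The comparison, its members and the 32 gene lists were chosen with earlier results of these data known. Genes were named by a rule: the 12 largest differences each way without overlap; the 8 largest each way called in the same direction by 2 probe sets; genes whose 2 probe sets were called in opposite directions; up to 4 called members per list; and 43 kidney genes, of which those on the arrays are given. Other list members and genes are named as examples after their values were seen. Of the 43, 8 are not analysed here. Alternatives were pseudocounts of 1 and 64, a filter at the 0.75 quantile or none, quantile normalization, equal medians, other choices of probe set, each array left out and, for the fetal fit, no trend, array weights and a replicate block.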

Additional observations from a re-analysis of the deposited data

How the results depend on the processing

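The number of genes higher and lower in adult kidney moved by over 1.5 times with the genes that were counted. It was 1783 and 1148 of 9580 with no filter, 285 and 441 of 2713 at the 0.75 quantile, and 429 and 335 of 2869 with only plainly named probe sets. With all 7151 kept probe sets counted it was 898 and 1076. The totals depend on the number of genes tested, but the balance of calls moved with the filter too. Of the calls, 60.8% were higher with no filter, 50.5% in the main setting and 39.3% at the 0.75 quantile. The offset between the ages also moved with brightness, as given above. Leaving out 1 array gave 678 to 777 higher and 673 to 790 lower. The added 16 mattered less, with 760 and 738 at a pseudocount of 1 and 606 and 613 at 64. The share of second probe sets with the same sign was 67.9% with no filter, 75.6% at the 0.75 quantile, 75.8% at equal median signal and 61.5% of 205 genes with plainly named probe sets; the cause was not tested. For the fetal fit, 226 genes were higher at the 0.75 quantile, and leaving out 1 array gave 172 to 382 higher and 188 to 405 lower.

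With only plainly named probe sets, EGFR (1.47), MARCKS (0.081), PTPRO (1.36) and SLC35E1 (1.12) turned positive through another probe set, and CDKN1C (-0.75) and YWHAZ (-0.07) lost their calls. TEK ranged from -0.12, without 60dG replicate 1, to 1.24, without adult replicate 1. Of 127 called named genes, 121 of 123 present kept their call without adult replicate 3, all 122 present kept it without 60dG replicate 2, and 118 of 124 kept it after quantile normalization. GAP43 lost it without adult replicate 3, at 0.92.

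No paired analysis was possible for adult against 60dG because that comparison comes from no test, with age and array type the same split. Among 90dG, 125dG and 160dG, the deviations of same-numbered arrays correlated at -0.10 to 0.12, so the numbers do not pair the samples. The fit with a replicate block called 314 genes higher and 339 lower. Array type and age cannot be told apart, and GCOS settings of the 2 tables are unknown, so no direction is read from small differences, list medians near 0 or the balance of calls. With 2 arrays at 60dG, absence of overlap is a weak criterion.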

Other observations

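Beyond the kidney lists, 60dG replicate 2 held 23 genes at least 4-fold above 60dG replicate 1, and 8 genes ran the other way. Besides CYP17A1, STAR and CYP11A1, which carries out the first step of steroid synthesis (728 on replicate 2, 38.1 on replicate 1), the 15 largest included FDX1, the electron donor of mitochondrial steroid enzymes, at 1245 on replicate 2 and 206 on replicate 1. They also included CYP11B1, the last enzyme of cortisol synthesis, at 640.1 and 96.8. HSD3B2 and MC2R, the receptor of ACTH, gave 154 and 139 on replicate 2 and 16.3 and 121 on replicate 1, so the adrenal genes differed by unequal amounts. PNMT, the enzyme of adrenaline synthesis in the medulla, gave 129 and 27.4.

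A few genes lower in adult kidney varied widely among the adults, and were chosen for that range after their values were seen. ID3, an inhibitor of helix-loop-helix factors, gave 183, 6.8 and 61.2 in adult and 662 and 547 in 60dG kidneys. FAT4, an atypical cadherin, gave 111, 62.8 and 6.7 in adult and 582 and 773 in 60dG kidneys, and FST, the activin antagonist follistatin, 346, 49.9 and 108 in adult and 548 and 618 in 60dG kidneys. Of the kept genes, 26.3% of 2589 read by plainly named probe sets were called, as were 26.9% of 536 read by probe sets whose names mark possible cross-hybridisation.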
